A study of Canis lupus familiaris with 26 samples.

Results

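The brown co-expression module belongs to the gene groups that the study assembled from the expression of stromal samples of dog mammary tumours. The genes described here are those that remain in it once the collagens and a list of further genes (matrix, MHC and Wnt pathway genes such as BGN, POSTN, CD74 and SFRP1) are set aside by name. Of 276 genes assigned to the module, 90 could be joined to an identifier in the count table, 21 of these were among the genes set aside, and 9 more had a mean of fewer than 5 counts per sample. This left 60 members among the 18466 genes of the table, and 186 genes of the module had no identifier and were not analysed here. The module was built from the co-expression of these samples together with carcinoma samples not used here. Symbols were partly read from a list ordered by the significance of the comparison made here. The members were thus chosen by their expression values in these samples, and their differences between the groups are given as a description whose number is no independent evidence of a direction.

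The 60 members are a mixed set by function. Secreted and membrane-bound regulators of TGF-beta, Wnt, IGF and platelet-derived growth factor signalling are among the best known signals by which tumour cells and fibroblasts communicate, and activated fibroblasts typically assemble contractile filaments and deposit matrix. Protease inhibitors limit the proteolysis of that matrix, interferon-induced genes mark the antiviral response that many cell types can mount, and several members are typical of leukocytes, which are a regular part of mammary stroma.

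RNAseq counts came from archival formalin-fixed, paraffin-embedded simple mammary adenomas, which are benign epithelial tumours, of 13 female pet dogs of various breeds. From each dog, adenoma-associated stroma (AAS, which the labels call cancer-associated stroma) and normal stroma next to unaltered mammary gland were isolated from the same slides by laser-capture microdissection, so that both samples of a pair share the dog, its age and the block. Pair 14 was left out because of the very low depth of its normal sample, and 12 samples per group were compared, from dogs aged 6 to 13 years and blocks stored for 4 to 29 months. The tumours arose spontaneously and carried no engineered allele or treatment, and each captured area held every cell type present in it.

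Total estimated counts were 759119 to 1602797 in normal stroma and 419770 to 1614120 in AAS. In the AAS sample of pair 7 a single gene took 84.9% of all counts, which left 93673 counts for the others and 377 for the 60 members, against 1068 to 8394 member counts in the other AAS samples and 869 to 3925 in normal stroma. Values of that sample therefore rest on few reads. A count of 3, the most that a gene listed at 0 could plausibly have had, corresponded to 1.87 to 3.95 CPM (counts scaled to the normalised library total) in normal stroma and 1.86 to 7.15 CPM in AAS, and it covers counting error only. Fibroblast markers were present in all samples, with a summed level of DCN, PDGFRA, COL1A1, COL1A2 and COL3A1 of 1058 to 20404 CPM in normal stroma and 419.7 to 6590 CPM in AAS. The epithelial markers KRT19, EPCAM and CDH1 together reached 90.3 to 237.8 CPM in normal stroma and 95.5 to 291.5 CPM in AAS, so that no sample was free of epithelial RNA.

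Across the members the values lay more often above those of normal stroma than below them. With all 60 members in the fit, 50 had a positive and 10 a negative log2 fold change of AAS against normal stroma, with a median of 0.96, against a median of 0.01 over all 7763 genes that averaged 5 or more counts. In the fit restricted to the 4544 genes with enough counts in enough samples, 37 members remained. Of these, PMEPA1, TNIP1 and ISCA2 were higher in AAS with more than a doubling and an adjusted p below 0.05 (edgeR's quasi-likelihood test, Benjamini-Hochberg correction across all genes tested), and no member was lower. The same rule called 1.8% of all genes tested, 0.616% as higher and 1.19% as lower. With the pair as a block, SESN3 joined them, while 2.53% of all genes were called. When all 60 members entered the fit, 6 were higher, namely ADCYAP1R1, DKK2, ISCA2, PMEPA1, SESN3 and TNIP1, against 1.97% of all genes called, 0.824% as higher and 1.15% as lower. With the pair as a block in this wider fit the number was again 6, with A2M in the place of ADCYAP1R1, against 2.36% of all genes called and 0.734% called as higher.

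**Figure D1:**
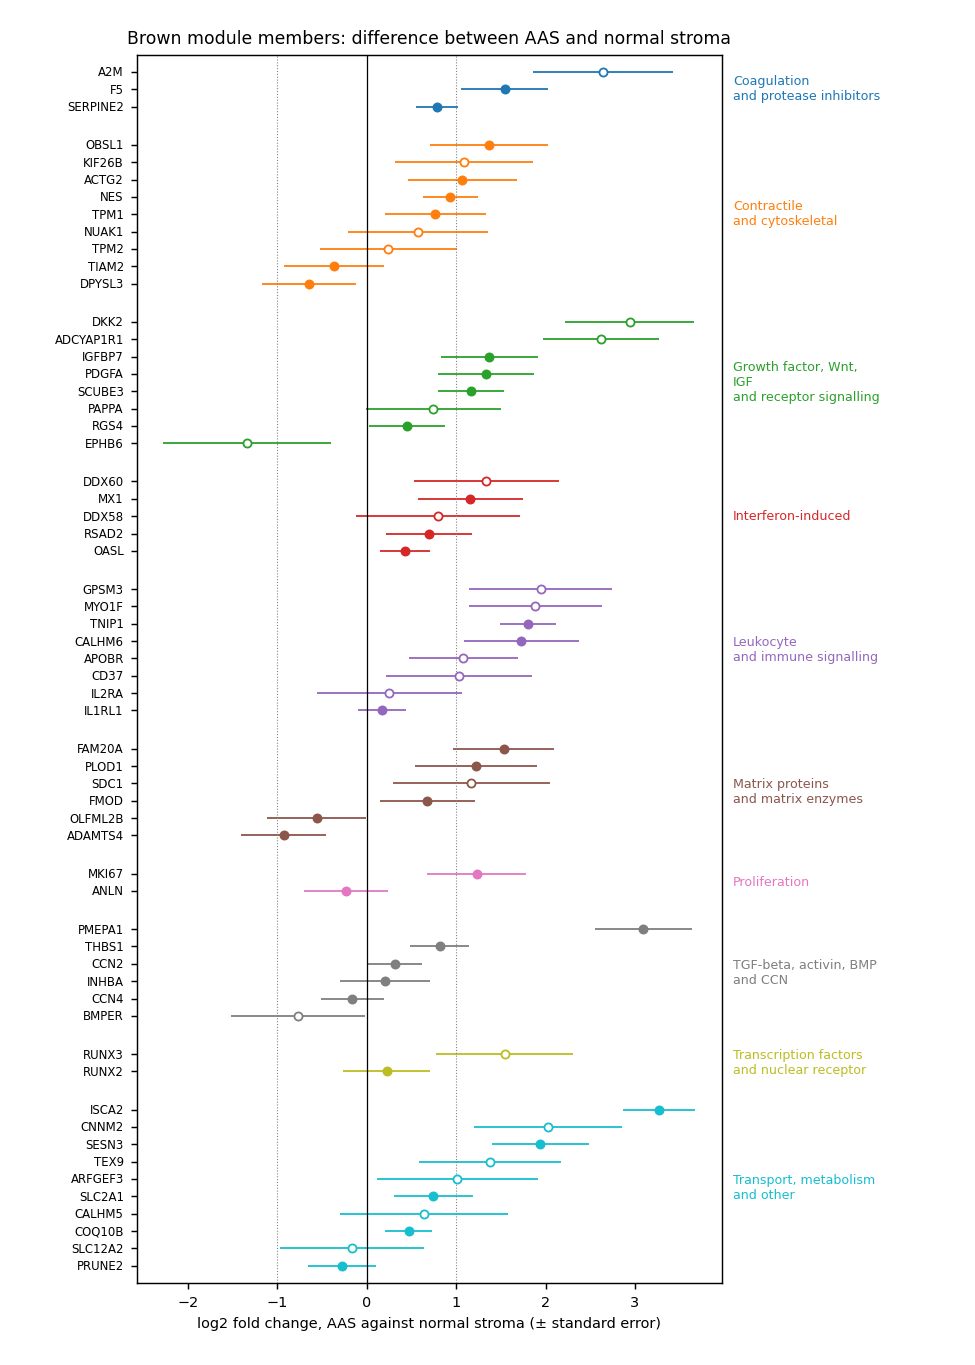
Log2 fold change of AAS against normal stroma for 59 of the 60 members, by functional group, with its standard error as a bar (12 samples per group). Filled points come from the fit of 4544 genes and open points, for the 23 members with too few counts for it, from the fit of genes that averaged 5 or more counts. Dotted lines mark a log2 fold change of 1 in either direction. Most points lie to the right of 0, and ISCA2 and PMEPA1 lie farthest from it, at 3.27 and 3.09.

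The pairs were also compared directly. In 4 of 60 members (ISCA2, TNIP1, SESN3 and MYO1F) the AAS sample was the higher in CPM in all 12 pairs, which was so for 0.219% of all genes with a mean of 5 counts. The groups did not overlap for 1 member, ISCA2, and for 0.142% of all genes. In 15 of 60 members, and in 3.12% of all genes with a mean of 5 counts, AAS was the higher in 10 or more pairs. In no member was it the lower in 10 or more, but the share of all genes in that direction was not counted. Counts were low for many members, and 37 of the 60 had 0 counts in at least 1 of the 24 samples.

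**Figure D2:**
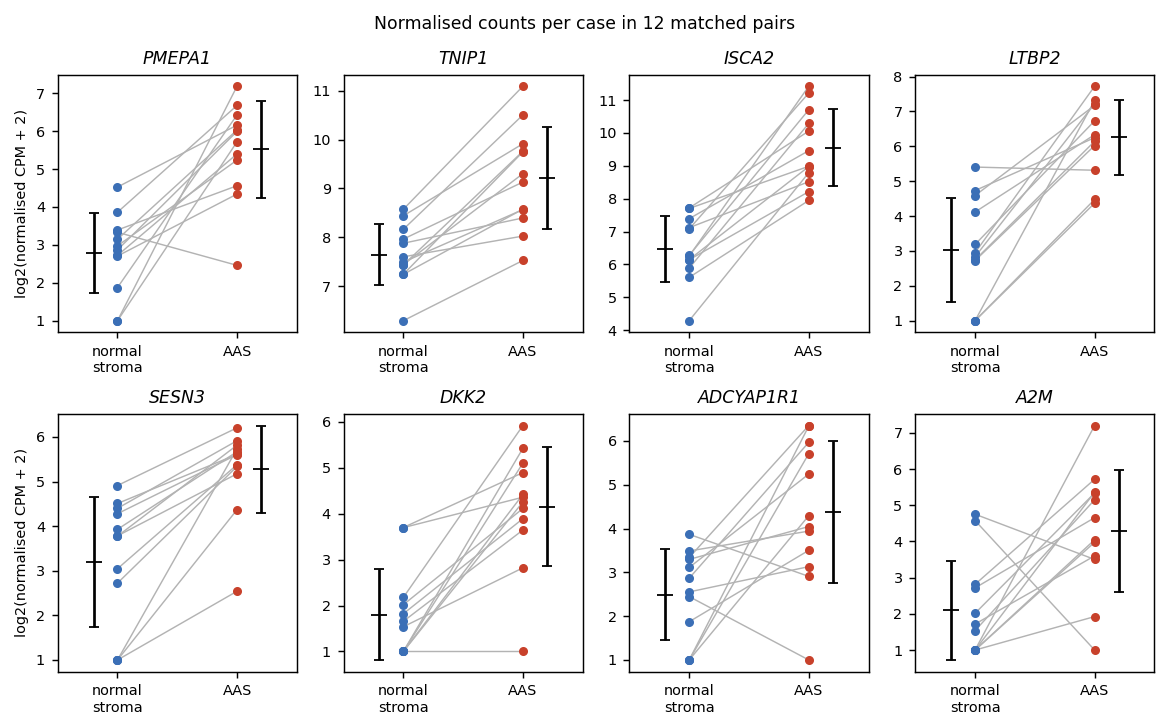
Log2 of normalised CPM plus 2 in normal stroma (blue) and AAS (red) for 7 members and for LTBP2, a neighbour of ISCA2, with a grey line for each of the 12 pairs and the mean ± SD at the sides. The groups are apart for ISCA2 alone. In SESN3 and TNIP1 every line ends higher in AAS, and in DKK2, ADCYAP1R1 and A2M many normal samples lie at or near 0 counts.

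Among the members linked to TGF-beta, activin, BMP and CCN proteins, PMEPA1 was the only gene of 6 to pass the test. PMEPA1 (ENSCAFG00000031382) encodes a membrane protein that TGF-beta induces and that restrains TGF-beta signalling in turn. In normal stroma it ranged from 0 to 21.0 CPM with a median of 5.57, and in AAS from 3.50 to 143 CPM with a median of 56.1. In 10 of 12 AAS samples it exceeded the highest normal sample, and AAS was the higher in 11 of 12 pairs, with pair 10, where the AAS value was a single count, as the exception. PMEPA1 rose by a log2 fold change of 3.09 ± 0.54 (SE, n = 12 per group; adjusted p = 0.00037, edgeR's quasi-likelihood test), and by 3.08 with the pair as a block (adjusted p = 0.00524). It stayed past the threshold in each of the 12 fits that left out 1 pair, with log2 fold changes from 2.75 to 3.39.

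The differences of the other 5 members of this group did not pass the test. THBS1, a matricellular protein that can activate latent TGF-beta, was at 148 ± 102 CPM (SD, n = 12) in normal stroma and at 259 ± 141 CPM in AAS, and was higher in AAS in 9 of 12 pairs. Its log2 fold change of 0.81 ± 0.33 did not pass the test (adjusted p = 0.317, edgeR). CCN2, the connective tissue growth factor, had a log2 fold change of 0.31 ± 0.31, and INHBA, the subunit of activin A, one of 0.21 ± 0.50. CCN4, a Wnt-induced relative of CCN2, had a value of -0.16 ± 0.35, and BMPER, a secreted modulator of BMP, one of -0.77 ± 0.75. In normal stroma INHBA and CCN4 were highest in the same sample, that of pair 15, at 64.6 and 99.4 CPM. Of 29 further genes of the TGF-beta pathway (receptors, SMADs, latent binding proteins and regulators), 9 had an identifier, and none of the 4 with enough counts for the test passed it. All 4 had negative values, from TGFBR3 at -1.05 to LTBP1 at -0.59, while the median over all genes was 0.01.

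Of the 8 members that act in growth factor, Wnt, IGF and receptor signalling, DKK2 and ADCYAP1R1 were past the threshold in the fit that contained all members. DKK2 encodes a secreted modulator of Wnt receptors. It was at 0 in 5 normal samples and reached 11.0 CPM at most in that group, with a median of 1.03, whereas in AAS the values ran from 0 to 58.4 CPM with a median of 17.8. In AAS 9 samples exceeded the highest normal sample. AAS was the higher in 11 pairs, and in pair 7 both samples were at 0. Its log2 fold change was 2.94 ± 0.72 (adjusted p = 0.0167, edgeR's quasi-likelihood test), and 3.56 with the pair as a block (adjusted p = 0.0139). DKK2 rests on 41 counts in all normal samples together and on 288 in AAS, and it was no longer past the threshold without pair 3 or without pair 12, where its log2 fold change was 2.71 in both cases.

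ADCYAP1R1, the receptor of the neuropeptide PACAP, was spread more widely over the tumours. It was at 0 to 12.6 CPM in normal stroma with a median of 4.58, and at 0 to 79.7 CPM in AAS with a median of 16.1. The AAS samples of pairs 4, 5, 6 and 9 held 50.3 to 79.7 CPM, and those of pairs 7, 10, 12 and 13 lay within the range of normal stroma. The log2 fold change was 2.62 ± 0.65 (adjusted p = 0.0172, edgeR). The call was lost with the pair as a block (2.28, adjusted p = 0.177) and without pair 5, 6 or 9, with log2 fold changes of 2.30 to 2.49.

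The remaining signalling genes did not pass the test. SCUBE3, a secreted protein that binds growth factor receptors, was at 23.6 ± 13.7 CPM in normal stroma and 52.8 ± 24.6 CPM in AAS, exceeding normal stroma in 11 of 12 pairs (log2 fold change 1.17 ± 0.37, adjusted p = 0.112, edgeR). IGFBP7, an IGF-binding protein of the matrix and of vessels, had a log2 fold change of 1.37 ± 0.54, and its AAS values ran from 0 in pair 10 to 383 CPM in pair 3. PDGFA, a ligand for the receptors of mesenchymal cells, had a value of 1.33 ± 0.54. RGS4, which shortens G protein signals, was at 0.45 ± 0.43. PAPPA, a protease that releases IGF from its binding proteins, was at 0.75 ± 0.75. EPHB6, a kinase-dead ephrin receptor, had the lowest value of all 60 members, -1.34 ± 0.94, on 156 counts in normal stroma and 45 in AAS.

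The members of coagulation and protease inhibition had positive log2 fold changes, and none of the 4 was called in either of the fits without the block. A2M, the broad plasma protease inhibitor alpha-2-macroglobulin, was at 0 in 5 normal samples and in 1 AAS sample. Its range was 0 to 25.0 CPM with a median of 1.10 in normal stroma and 0 to 145 CPM with a median of 18.9 in AAS. AAS was the higher in 10 pairs, and pairs 7 and 10 went the other way. The log2 fold change was 2.64 ± 0.79 (adjusted p = 0.0741, edgeR), and with the pair as a block it was 3.62 (adjusted p = 0.0186). Of the 12 fits that left out 1 pair, with no block, 2 were past the threshold, those without pair 7 (3.29) and pair 10 (3.35), and 10 were not. Without pair 15 the log2 fold change was 1.997 (adjusted p = 0.258). The AAS sample of pair 15 alone held 18.9% of all A2M counts.

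Coagulation factor V (F5) was at 3.43 to 94.3 CPM in normal stroma, with a median of 21.3, and at 12.8 to 217 CPM in AAS, with a median of 71.7. It was the higher in AAS in 8 of 12 pairs. Its log2 fold change was 1.54 ± 0.49 (adjusted p = 0.112, edgeR's quasi-likelihood test), and it was past the threshold under DESeq2 (1.53, adjusted p = 0.038) and without pair 15 (1.94). SERPINE2, an inhibitor of thrombin and of plasminogen activators, varied less between dogs. It was at 71.3 ± 18.3 CPM in normal stroma and 124 ± 55.6 CPM in AAS, exceeded normal stroma in 11 of 12 pairs, and had a log2 fold change of 0.79 ± 0.23 (adjusted p = 0.0804). Of 19 other genes of coagulation and plasminogen, 3 had an identifier. F13A1, a clotting factor subunit made by macrophages, fell by 2.42 on the log2 scale (adjusted p = 0.0011), SERPINF1, an anti-angiogenic serpin, fell by 2.12 (adjusted p = 0.0025), and the complement inhibitor SERPING1 was at -1.04 and did not pass.

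Among the 8 leukocyte and immune signalling genes, TNIP1 alone passed the test. TNIP1 (ENSCAFG00000017954) encodes a partner of TNFAIP3 that restrains NF-kB signalling and is expressed in many cell types. It was at 76.6 to 379 CPM in normal stroma with a median of 185, and at 183 to 2179 CPM in AAS with a median of 595. AAS was the higher in all 12 pairs, by the widest margin in pair 8, where normal stroma was itself at its highest. In 8 AAS samples the value exceeded every normal sample, and the remaining 4, of pairs 3, 10, 12 and 13, overlapped with the range of normal stroma. TNIP1 rose by a log2 fold change of 1.80 ± 0.32 (adjusted p = 0.00037, edgeR's quasi-likelihood test), by 1.57 with the pair as a block, and by 1.62 to 1.89 with 1 pair left out. It rests on 2962 counts in normal stroma and 9286 in AAS, more than most members.

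MYO1F, an unconventional myosin of leukocytes, was absent from 6 normal samples and present in all AAS samples. It ran from 0 to 18.8 CPM in normal stroma and from 5.95 to 28.0 CPM in AAS, with medians of 2.50 and 18.4, and AAS was the higher in CPM in 12 of 12 pairs. MYO1F rests on 61 counts in normal stroma and 203 in AAS, and the 28.0 CPM of pair 7 were 3 counts. Before scaling, AAS did not have more counts in every pair. In normal stroma and AAS in that order, pair 7 had 3 and 3 counts, pair 8 had 24 and 20, and pair 11 had 14 and 14. Its log2 fold change of 1.89 ± 0.74 did not pass the test (adjusted p = 0.278, edgeR), nor did the value of 2.90 with the pair as a block (adjusted p = 0.0778). GPSM3, a modulator of G proteins in myeloid cells, was at 179 CPM in the AAS sample of pair 4 and at 274 CPM in that of pair 6, against a median of 10.2 CPM in AAS. CALHM6, a channel protein of macrophages, was highest in the AAS samples of pairs 10 and 15, at 217 and 118 CPM. IL2RA, a subunit of the interleukin receptor of activated T cells, reached 54.2 CPM in the normal sample of pair 13 and 81.2 CPM in the AAS sample of pair 11. CD37, a tetraspanin of B cells, APOBR, a lipoprotein receptor of macrophages, and IL1RL1, the receptor of an alarmin cytokine, had log2 fold changes of 1.03, 1.08 and 0.17. Of 6 leukocyte markers chosen after the first list proved to have no identifiers (AIF1, CD163, CSF1R, CSF3R, ITGAM and MRC1), none was called. Their summed level was 454 to 1031 CPM in normal stroma and 445 to 1428.5 CPM in AAS and was the higher in AAS in 6 of 12 pairs. In the fit of genes that averaged 5 or more counts, 2 of the 6 markers had positive and 4 negative log2 fold changes, with a median of -0.65. In these bulk samples, fewer cells of a type and less RNA per cell cannot be told apart.

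None of the 5 interferon-induced members passed the test, and all 5 had positive values. MX1, an antiviral GTPase, was at 13.9 ± 14.8 CPM in normal stroma and at 32.3 ± 30.8 CPM in AAS, with a log2 fold change of 1.16 ± 0.58 (adjusted p = 0.50, edgeR). OASL, an antiviral member of the oligoadenylate synthetase family, was the best covered of the 5, with 2084 counts in normal stroma and 2390 in AAS. It was at 156 ± 61.6 CPM in normal stroma and 212 ± 137 CPM in AAS, with a log2 fold change of 0.43 ± 0.28. RSAD2, which encodes viperin, had a log2 fold change of 0.70 ± 0.48. Its AAS values lay between 12.8 and 48.5 CPM apart from 235 CPM in pair 8, and without that pair the log2 fold change was -0.12. The same AAS sample was also the highest of all for OASL, at 602 CPM. DDX58, a sensor of viral RNA, and DDX60, its cofactor, had log2 fold changes of 0.80 ± 0.92 and 1.34 ± 0.81, and both were at 0 counts in several samples of each group. Of 42 other interferon-induced genes, 8 had an identifier, and none of the 7 with enough counts passed the test with or without the pair. The median of these 7 genes was 0.57.

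**Figure D3:**
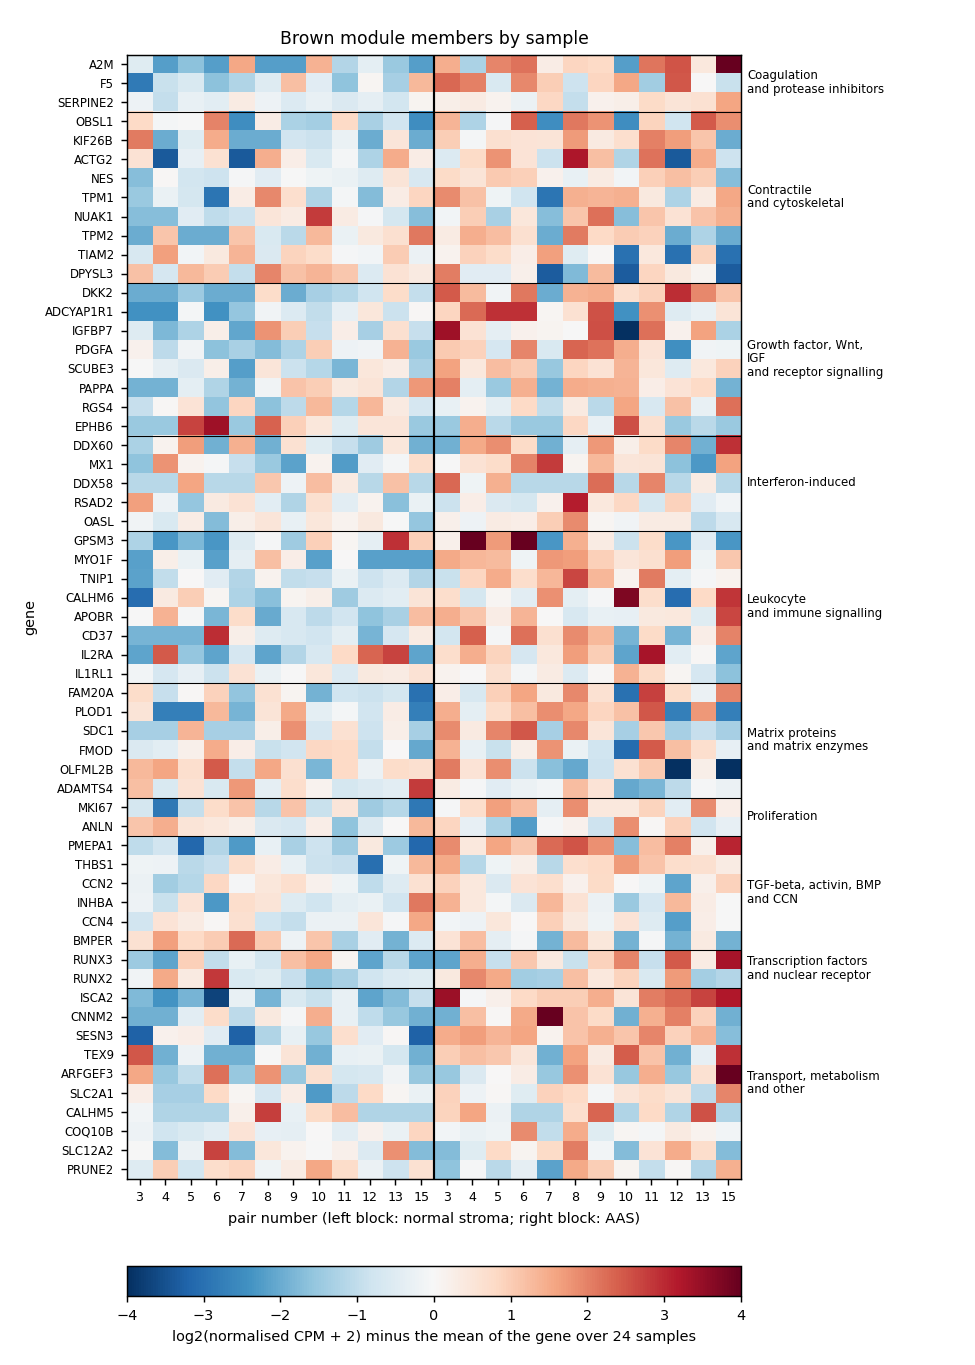
Log2 of normalised CPM plus 2 for 59 of the 60 members (in functional groups from top to bottom), given as the difference from the mean of the gene over 24 samples. The left block shows the normal stroma samples and the right block the AAS samples, both by pair number. Red cells are more frequent on the right, and the deepest ones sit in different samples for different genes, such as pair 15 for A2M and RUNX3, pairs 4 and 6 for GPSM3 and pair 8 for RSAD2.

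The contractile and cytoskeletal members gave no call. Of 9 genes, 7 had positive and 2 negative values, with a median of 0.72. NES, an intermediate filament of progenitor and mural cells, was the most uniform of them, at 33.0 ± 12.4 CPM in normal stroma and 62.5 ± 26.5 CPM in AAS. It was the higher in AAS in 11 of 12 pairs and above the highest normal sample in 7 (log2 fold change 0.94 ± 0.31, adjusted p = 0.14, edgeR). ACTG2, the gamma actin of smooth muscle, was split evenly, with AAS the higher in 6 pairs and the lower in 6, and with 190 CPM in the AAS sample of pair 8. The tropomyosins TPM1 and TPM2, which stabilise actin filaments, had log2 fold changes of 0.77 ± 0.56 and 0.24 ± 0.77. The giant adaptor protein OBSL1, the kinesin KIF26B and the kinase NUAK1 had values of 1.37, 1.09 and 0.57. DPYSL3, a cytoskeletal regulator first described in neurons, was at -0.65 ± 0.53 and the Rac activator TIAM2 at -0.37 ± 0.56. Of 27 further contractile genes 8 had an identifier, and none of the 7 with enough counts passed either, with a median of -0.02. Of these 7 genes, 3 had positive and 4 negative values. MYL9, a regulatory light chain of myosin, had the lowest adjusted p of the 7 in the fit without the block (0.157, edgeR), at 0.59 ± 0.20.

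Matrix proteins and matrix enzymes were also split in direction, with 4 positive and 2 negative values among 6 members. FAM20A, a pseudokinase of the secretory pathway, had a log2 fold change of 1.53 ± 0.56 (adjusted p = 0.230, edgeR), PLOD1, which hydroxylates lysines of collagen, one of 1.22 ± 0.68, and the collagen-binding proteoglycan FMOD one of 0.68 ± 0.53. All were highest in the AAS sample of pair 11. SDC1, a cell surface proteoglycan of epithelium and plasma cells, was at 1.17 ± 0.88 on 54 and 119 counts. The secreted protein OLFML2B and the aggrecanase ADAMTS4 lay on the other side, at -0.56 ± 0.55 and -0.93 ± 0.48. OLFML2B ran from 8.06 to 195 CPM in normal stroma and from 0 to 149 CPM in AAS. Beside these values, the 5 fibroblast markers all had negative log2 fold changes, with a median of -1.26. DCN, a proteoglycan of fibroblasts, fell by 1.96 (adjusted p = 0.010) and was the lower in AAS in every pair. The part of the fibroblast share in the values of the members was not tested.

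Proliferation genes and transcription factors gave no call. MKI67, which marks cycling cells, was at 0 to 30.0 CPM in normal stroma and at 8.81 to 51.4 CPM in AAS, and was the higher in AAS in 10 of 12 pairs (log2 fold change 1.23 ± 0.56, adjusted p = 0.414, edgeR). ANLN, which acts in cytokinesis, was at -0.23 ± 0.47 and was lower in AAS in 8 pairs. Of 27 further proliferation genes, the 2 with enough counts, MCM7 and KIF20A, did not pass, at 0.74 and 0.22. RUNX2, the master regulator of bone formation, was at 70.2 ± 99.7 CPM in normal stroma, where the sample of pair 6 held 367 CPM, and at 80.1 ± 63.7 CPM in AAS. Its log2 fold change was 0.22 ± 0.49, and 1.02 without pair 6. RUNX3, a transcription factor of T cells and macrophages, had a log2 fold change of 1.54 ± 0.77 on 83 and 187 counts.

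ISCA2 had the largest log2 fold change of all members and was the only member whose groups did not overlap. ISCA2 (ENSCAFG00000032473) encodes a mitochondrial protein of iron-sulfur cluster assembly. It was at 17.5 to 208 CPM in normal stroma, with a median of 74.9, and at 244 to 2736 CPM in AAS, with a median of 603. Its log2 fold change was 3.27 ± 0.40 (adjusted p = 3.91e-06, edgeR's quasi-likelihood test), and 2.98 to 3.43 with 1 pair left out. In a current dog gene table (assembly UU_Cfam_GSD_1.0, another build than the one used for the counts), ISCA2 overlaps LTBP2, a latent TGF-beta binding protein of the same module. LTBP2 was at 0 to 40.3 CPM in normal stroma and at 18.7 to 209 CPM in AAS, with a log2 fold change of 3.17 ± 0.56, and the 2 genes were highest in the same AAS sample, that of pair 3. Over the 12 AAS samples their log2 CPM values had a Pearson r of 0.78, given as a description. Both genes were counted in the same libraries, which differed in depth. The strand setting of the quantification is not given in the sources used here, and whether reads of LTBP2 were assigned to ISCA2 was not tested. The value of ISCA2 is therefore uncertain as a measure of that gene. Of 59 members found in the table, 10 overlap another protein-coding gene, among them IGFBP7, APOBR, CD37, ANLN, THBS1, RUNX2, TIAM2, CALHM5 and TEX9.

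SESN3 (ENSCAFG00000004127), a stress-induced sestrin that restrains mTOR signalling, was close to the threshold. It was at 0 in 3 normal samples and reached 28.1 CPM there, with a median of 11.7, and lay between 3.82 and 71.8 CPM in AAS, with a median of 46.7. AAS was the higher in all 12 pairs, and in 10 AAS samples the value exceeded that of every normal sample. The exceptions were pairs 7 and 15, whose AAS values rest on 2 counts each. The log2 fold change was 1.94 ± 0.54 (adjusted p = 0.0532, edgeR), and 2.30 ± 0.53 with the pair as a block (adjusted p = 0.0142). Among the fits that left out 1 pair, it passed in 1 of 12, the fit without pair 15.

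The other members of transport and metabolism did not pass the test. COQ10B, a mitochondrial coenzyme Q binding protein, was among the best covered members, at 500 ± 189 CPM in normal stroma and 689 ± 504 CPM in AAS (log2 fold change 0.47 ± 0.26, adjusted p = 0.595, edgeR). The glucose transporter SLC2A1 had a log2 fold change of 0.75 ± 0.44, and the ion transporter SLC12A2 one of -0.16 ± 0.80. CNNM2, a magnesium transport protein, was at 140 CPM in the AAS sample of pair 7, on 15 counts, and at or below 28.6 CPM elsewhere. ARFGEF3 and TEX9 were highest in the AAS sample of pair 15, at 95.5 and 55.4 CPM, CALHM5 had a value of 0.64 ± 0.94, and PRUNE2 one of -0.28 ± 0.38.

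The tumours in which the members were highest differed from gene to gene. For 44 of 60 members (73.3%) the highest of the 24 samples was an AAS sample, against 56.7% of all genes with a mean of 5 counts. The AAS sample of pair 15 was the highest for 10 members (A2M, APOBR, ARFGEF3, DDX60, PMEPA1, RGS4, RUNX3, SERPINE2, SLC2A1 and TEX9), which is 16.7% of the members against 7.84% of all genes, and that of pair 3 for 8 members (13.3% against 4.28%). The AAS samples of pairs 8 and 11 and the normal sample of pair 6 were each the highest for 5 members (8.33%), against 10.51%, 1.85% and 6.57% of all genes. The AAS sample of pair 15 was among the shallower ones, with 480753 counts. The median Pearson r between members over the 12 samples was 0.04 in AAS, against 0.06 for all genes tested, and -0.01 in normal stroma, against 0.02. These correlations cover the 37 members of the main comparison and are a description. Depth and RNA quality differed between samples, and all genes of a sample share them.

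The source of the symbol moved with the size of the differences. The 44 members whose symbol came from the list ordered by significance had a median log2 fold change of 1.13, 39 of them positive, and held all 6 calls of the fit with every member. The 16 members named only from a list in identifier order had a median of 0.41, with 11 positive and no call. Since the first list was ordered by this same comparison, the difference between these sets says nothing of the module as a whole.

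**Figure D4:**
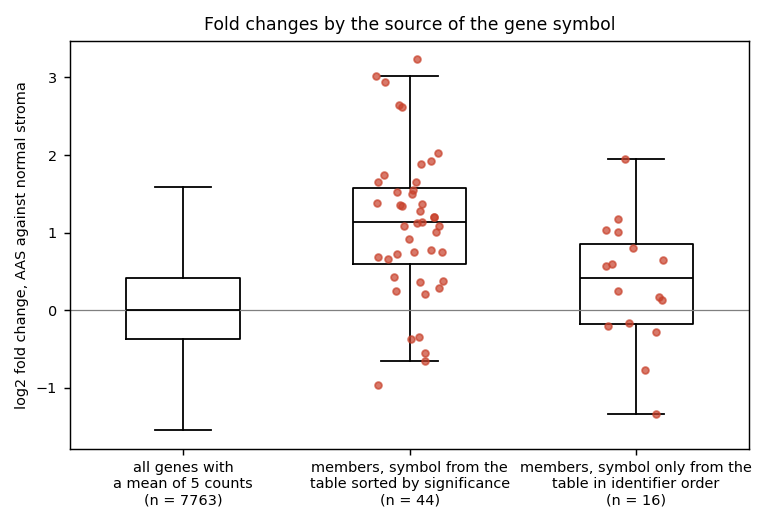
Log2 fold change of AAS against normal stroma in the fit of genes that averaged 5 or more counts, for all 7763 genes (box only) and for members by the source of their symbol (points). Boxes span the quartiles with the median as a line, and whiskers reach to at most 1.5 times the box height, with genes beyond them not drawn for the set of all genes. The 44 members from the list sorted by significance lie higher (median 1.13) than the 16 from the list in identifier order (median 0.41), and both medians exceed that of all genes (0.01).

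The age of the dog and the storage time of the block played no part in choosing the members, and within AAS no member was called for either of them at an adjusted p below 0.05. Over the 12 AAS samples and 4544 genes, 0 genes were called for the age of the dog and 124 (2.73%) had an unadjusted p below 0.05, among them the members CALHM6 and RUNX2. CALHM6 was higher in older dogs, by 0.59 ± 0.26 log2 per year, and RUNX2 lower, by -0.37 ± 0.15. For the storage time, 1 gene (0.022%) that is no member was called and 193 (4.25%) had an unadjusted p below 0.05, among them ISCA2, PRUNE2, RSAD2 and THBS1, all 4 with lower values in older blocks. When all 60 members entered the fit, 4 had an unadjusted p below 0.05 for the age of the dog and 6 for the storage time, against 2.68% and 4.12% of all genes, and no member was among the 0.0386% and 0.0258% of genes that were called. The lowest adjusted p of a member was 0.999 for the age of the dog and 0.707 for the storage time in the fit of 4544 genes (edgeR). DESeq2 likewise called 0 members for either, and named the same 2 and 4 members at an unadjusted p below 0.05. Pair 7 came from the oldest dog and the oldest block, and its AAS sample rests on few reads. Without pair 7, CALHM6 and THBS1 had an unadjusted p below 0.05 for the age of the dog in edgeR, and RUNX2 did not. For the storage time RSAD2, ISCA2 and PRUNE2 did so without pair 7, and THBS1 did not.

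Other cell types were followed by marker genes with an identifier. The endothelial markers KDR and TEK summed to 9.2 to 89.2 CPM in normal stroma and 0 to 63.4 CPM in AAS, and neither was called. KRT15, a keratin of basal epithelium added after the myoepithelial markers proved to have no identifier, was at 4.83 ± 5.69 CPM in normal stroma and 46.6 ± 59.1 CPM in AAS (log2 fold change 3.07 ± 0.83, adjusted p = 0.0355, edgeR, and 0.139 with the pair as a block). It reached 199 CPM in the AAS sample of pair 10 and was at 0 in those of pairs 13 and 15, where PMEPA1 was at 18.2 and 143 CPM and ISCA2 at 1666 and 2371 CPM. The part of basal epithelium in the other results was not tested. The keratinocyte marker SPINK5 had a median of 14.6 CPM in normal stroma and 0.3 CPM in AAS. No leukocyte, pericyte, adipocyte or myoepithelial marker of the first lists had an identifier, so that those cell types were not followed by them.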

How the data were processed

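RNAseq was analysed in 24 samples, 12 of AAS and 12 of normal stroma, with the pair number of the labels joining both samples of a dog. The authors quantified reads with kallisto 0.44.0 against CanFam3.1 transcripts, summed them per gene, and deposited estimated counts without normalization. The deposited counts are whole numbers and were filtered with filterByExpr (4544 genes) and TMM-scaled. Groups were compared in edgeR 4.0.16 (R 4.3.3) by quasi-likelihood, with group as the only term and Benjamini-Hochberg adjustment. The standard errors of log2 fold changes are approximate. They were derived from the test as the absolute log2 fold change divided by the square root of its F statistic. Genes were called at an adjusted p below 0.05 and a log2 fold change beyond 1. Members removed by the filter were taken from a fit of the 7763 genes that averaged 5 or more counts. CPM values are TMM-scaled, so levels are compared within a gene, not between genes of different length. Tests adjust over all genes.

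The members, functional groups and gene lists were chosen with earlier results of these data known. Named with values are members past the threshold with or without the pair as a block, the 3 with the highest mean count in each functional group, and the members below the filter; further members are named for completeness, and single high samples were picked after their values were seen. Module membership and symbols came from lists of the study, which pair 3302 identifiers with a symbol. Other genes come from the lists, with 9 markers added after seeing the data.

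Both samples of a pair come from 1 dog. Deviations from the group means correlated at 0.13 within pairs on average and -0.01 between others, and exceeded 0.1 in 6 of 12 pairs. The biological coefficient of variation was 66.7%. In simulated counts with 200 changed genes for AAS against normal stroma, 109 passed the filter. Of these the test recovered 88 with 2 false calls among 4283 genes, and with the pair block it recovered 74 with 0. The simulated counts held no effect of the dog, so they cannot show what the block gains or loses in paired samples. The fit with a mean of 5 counts recovered 115 of 175 with 6 false calls among 7196 genes. Without changed genes there were 0 calls. Alternatives were the pair block, DESeq2 1.42.0 with and without it, RLE scaling, other count filters, pair 14 added, no fold threshold, and single pairs left out. Leaving out pairs other than 7, and the combinations of the filter on the mean with the block or with a pair left out, were added after seeing the data. Carcinoma samples were not used here. Sequences were not used here, so that a planned motif description of promoters was not run. Values of 1 member and of 1 gene of the other lists are not reported here.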

Additional observations from a re-analysis of the deposited data

How the results depend on the processing

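The 82 genes called (3 members) became 134 (6 members) under DESeq2, 227 (7) under DESeq2 with the pair as a block, 153 (6) with a filter on a mean of 5 counts, and 1690 of 18441 (11) with no filter. The mean filter together with the block called 6 members. Leaving out 1 pair gave 71 to 99 genes and 3 to 5 members, with 5 without pair 15, where F5 and SESN3 joined. The block alone (115 genes, 4 members), RLE scaling (78, 3), pair 14 (87, 4) and no fold threshold (86, 3) stayed within 1.5 times. TNIP1, PMEPA1 and ISCA2 were called in all of these fits. DESeq2 added F5, SCUBE3 and SESN3, and MKI67 with the block. In edgeR the pair as a block changed the calls of SESN3, A2M and ADCYAP1R1 only, as given in the report. Some members that were not called changed sign. RSAD2 was at -0.049 under DESeq2 and at -0.12 (without pair 8) to 1.09 with 1 pair left out, CCN4 at -0.28 to 0.062 (without pair 15), RUNX2 at -0.0060 (without pair 12) to 1.02, and SLC12A2 at 0.13 with the mean filter and the block. The cause was not tested. No member was called for either age under any alternative tried. In 37 members at least 1 sample had 0 counts. Without pair 7, whose AAS sample rests on few counts, 81 genes and 4 members were called.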

Other observations

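Pair 14, which the study left out before it built the module, gave values that played no part in choosing the members through co-expression. Its normal stroma sample held 83727 counts and its AAS sample 824086. Of 52 members with a count in either sample, 34 (65.4%) were higher in AAS and 18 lower, against 59.0% higher among 6606 genes with a count, so that the share lies near that of all genes. TNIP1 was at 74.2 CPM in normal stroma and 761 CPM in AAS, and ISCA2 at 66.8 and 1066 CPM (9 and 1051 counts). PMEPA1 was at 0 and 54.8 CPM (0 and 54 counts), and SESN3 at 22.3 and 113 CPM (3 and 111 counts). IL2RA had 0 counts in normal stroma and 135 in AAS. Among the 18 lower members were MX1, at 59.4 CPM in normal stroma and 14.2 CPM in AAS, and THBS1, at 535 and 430 CPM. A2M, which was high in other tumours, was at 0 in both samples. With 1 sample per group there was no test.

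The genes just below the minimum of 5 counts per sample were OSBPL3, ETV1 and MEST, with means of 4.5, 4.25 and 3.92, and those just above it were DDX58, SDC1 and CALHM5, with 6.17, 7.21 and 7.42. MEST, an imprinted gene of the mesoderm, had 91 counts in 6 AAS samples and 3 counts in 1 normal sample. PGR, the progesterone receptor, had 31 counts in 7 AAS samples and 5 counts in 1 normal sample. TNFRSF11B, the decoy receptor osteoprotegerin, had 32 counts in 6 AAS samples and 3 in 2 normal samples. In AAS and normal stroma in that order, TFPI2 had 29 and 8 counts, MDGA1 20 and 13, and ADGRF1 11 and 20. PRSS35 had 27 counts in 4 normal samples and 2 in 1 AAS sample. These genes entered neither of the fits the report gives.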
